A study of Drosophila melanogaster with 2 samples.

Results

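miR-12, miR-283 and miR-304 are 3 Drosophila melanogaster microRNAs whose hairpins lie close together on the X chromosome. They were taken by name, as mir-12, mir-283 and mir-304, from the count tables of an adult and a larval library of the central nervous system (CNS), and all 3 of 3 were listed in both, among 174 hairpins in all. The adult library came from brains with their antennal lobes, dissected 3 to 5 days after eclosion. The larval library came from ventral ganglia with optic lobes, without eye discs, of wandering larvae in the third instar. Both groups were w[1118] Iso31 flies of mixed sex reared at 24 °C, about 100 animals were pooled for each library, and the labels give no allele, transgene or treatment that set them apart. Stage and dissected tissue differ together in this design and cannot be told apart.

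A microRNA is cut from a hairpin in a longer transcript by Drosha and then by Dicer, and one arm of the hairpin, the mature form, is usually kept in an Argonaute protein. Its bases near the 5' end pair with target mRNAs, so the exact start of the mature form matters for which mRNAs it meets. Hairpins that lie together are often made from a shared transcript, yet the mature forms can end at very different levels, since each hairpin is processed and each product lost at its own rate. miR-12 and miR-283 have been tied to Hedgehog signalling in the wing disc, where raising them lowers components of that pathway.

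In the annotation of assembly BDGP6 the order along the plus strand of chromosome X was miR-283, miR-304 and miR-12. miR-283 lay at 15507956 to 15508055, miR-304 at 15508959 to 15509046 and miR-12 at 15509473 to 15509546, with 903 bases between the first pair and 426 between the second. Together they spanned 1591 bases. All 3 lay in a single intron of 2124 bases, from 15507594 to 15509717, of Gmap, which encodes a golgin of the Golgi apparatus. Each of the 4 annotated Gmap transcripts spliced over that intron, and no other annotated gene lay inside it. No annotated gene of the opposite strand overlapped a hairpin of the cluster. miR-12 stood 171 bases before the downstream exon and miR-283 began 362 bases past the upstream one.

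The deposited values are whole read counts for each hairpin, with reads of the mature 5' arm, reads of the mature 3' arm and all remaining reads of the hairpin, called other reads, in separate columns. A read is called exact when it equals the annotated mature form, and the remaining reads of an arm are called variant here. The adult library held 1665159 hairpin reads and the larval library 822500. Levels are given as reads per 1000000 hairpin reads of the library (RPM), so that 1 read stood for 0.601 RPM in the adult and 1.22 RPM in the larval library. All intervals are exact 95% intervals of counting error (Clopper-Pearson). Each stage has 1 library and so no replicates, and each comparison is between these libraries. The kit carries no molecular identifiers, so the intervals do not account for reads copied from a shared molecule.

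Markers of cell types describe the libraries as a whole. All 4 neuronal marker miRNAs were found, with a summed level of 5827 RPM in the adult and 3404 RPM in the larval library. Higher in the adult library were miR-932 (6060 adult and 575 larval reads), miR-137 (507 and 92) and miR-219 (466 and 24). The remaining member, miR-124, had 2670 adult and 2109 larval reads, at an adult over larval ratio of 0.625. Markers of muscle, 2 of 2 hairpins, summed to 13143 RPM in the adult and 565 RPM in the larval library. Most of that sum was miR-133, at 13002 adult and 518 larval RPM, beside 141 adult and 47.4 larval RPM for miR-1. The photoreceptor marker miR-210 stood at 17586 adult and 99.7 larval RPM, and 6 of 8 fat body markers summed to 28953 adult and 1171 larval RPM. Nearly all of the fat body sum came from miR-277, at 24463 adult and 312 larval RPM, and miR-278, at 4484 adult and 858 larval RPM. The remaining fat body markers found had at most 3 adult reads each and no larval reads. Germline markers were scarce: 6 of 8 testis hairpins summed to 14.4 adult and 3.65 larval RPM, and all 5 ovary and germline hairpins to 33.6 adult and 59.6 larval RPM, though miR-318 among them had 38 adult and 4 larval reads. Neither the presence of these tissues in the samples nor their part in the values of the cluster was tested. In tissue of many cell types, fewer cells that make a miRNA and less of it in each cell cannot be told apart.

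The cluster held 1582 adult and 1170 larval reads, which made 0.0950% of adult and 0.142% of larval hairpin reads. miR-283 had 925 reads in the adult library and 621 in the larval one, or 556 adult RPM (520 to 592) and 755 larval RPM (697 to 817). It was the most abundant of the 3 and ranked 54 of the 169 hairpins listed in the adult and 50 of the 139 in the larval library. miR-12 had 636 adult and 543 larval reads, or 382 adult RPM (353 to 413) and 660 larval RPM (606 to 718), at rank 59 in the adult and rank 53 in the larval library. miR-304 had 21 adult and 6 larval reads, or 12.6 adult RPM (7.81 to 19.3) and 7.29 larval RPM (2.68 to 15.9), at adult rank 104 and larval rank 107. Thus miR-283 and miR-12 ranked close to each other in both libraries, and the hairpin between them on the chromosome was far scarcer in both.

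**Figure D1:**
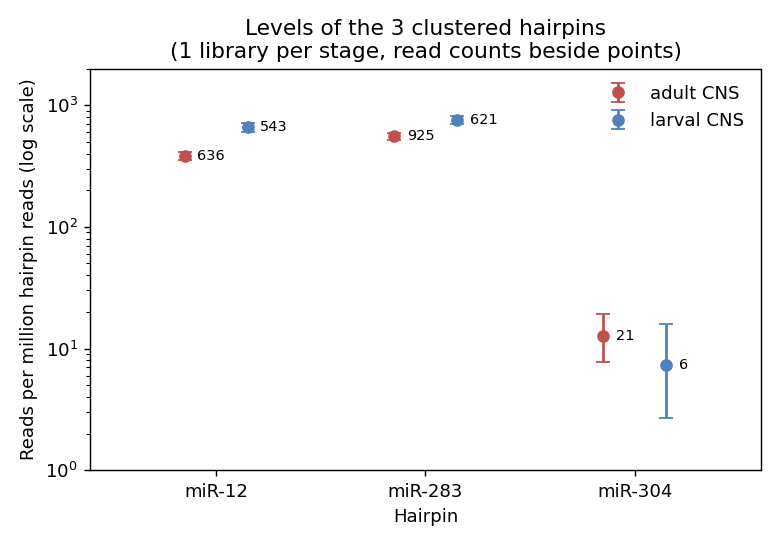
Level of each hairpin in RPM on a log axis, adult library left of larval library, with exact 95% counting intervals and the read count beside each point. miR-12 and miR-283 lie between 382 and 755 RPM, and miR-304 at 12.6 RPM in the adult and 7.29 RPM in the larval library.

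The order of levels was miR-283, miR-12, miR-304 in both libraries when all hairpin reads were counted. miR-283 exceeded miR-12 by 1.45-fold in the adult library (1.31 to 1.61) and by 1.14-fold in the larval one (1.02 to 1.29), where the interval came close to 1. miR-283 exceeded miR-304 by 44.0-fold in the adult library (28.6 to 71.5) and by 103.5-fold in the larval one (47.3 to 283). Levels of different miRNAs also depend on how well each sequence is ligated and copied in library making, which was not tested, so these folds between hairpins are less secure than those of a single hairpin between libraries. Reads of small RNA span the whole molecule and were not divided by length.

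Between the libraries, miR-12 and miR-283 were both lower in the adult one and miR-304 had the higher RPM there. The adult over larval ratio of miR-12 was 0.579 (0.515 to 0.650), which is 1.73-fold lower in the adult library. That of miR-283 was 0.736 (0.664 to 0.816), or 1.36-fold lower. The ratio of miR-304 was 1.73 with an interval of 0.675 to 5.24, and its counts of 21 and 6 do not fix a direction. The authors' deposited table gives signed folds of the same size, 1.73 for miR-12 and 1.36 for miR-283 as larval over adult, and -1.73 for miR-304, where the minus sign marks a higher adult value. The intervals of miR-12 and miR-283 lay below 1, so both differed by more than counting error.

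A hairpin was called higher in a library when its ratio reached 2 and its interval left out 1, with a floor of 20 reads in the libraries together and of 10 RPM in one or the other. All 3 members passed that floor and 0 of 3 were called. Over the 114 hairpins compared, 46 (40.4%) were called for the adult library and 28 (24.6%) for the larval one. With a reduced total that leaves out the 10 most abundant hairpins of each library, every log2 ratio dropped by 0.52. miR-12 then had a ratio of 0.403 and was called for the larval library, and calls over the compared hairpins were 40 for the adult and 41 for the larval one. The adult share of calls was then 49.4%, against 62.2% with the full total. With 0.5 reads added to each count, the median log2 ratio over the compared hairpins was 0.47. That of the 3 members, -0.44, is the value of miR-283 alone. Of the 114, 82 had a higher log2 ratio than miR-12, at -0.79, and 72 a higher one than miR-283, at -0.44. miR-304, at 0.71, was exceeded by 50.

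**Figure D2:**
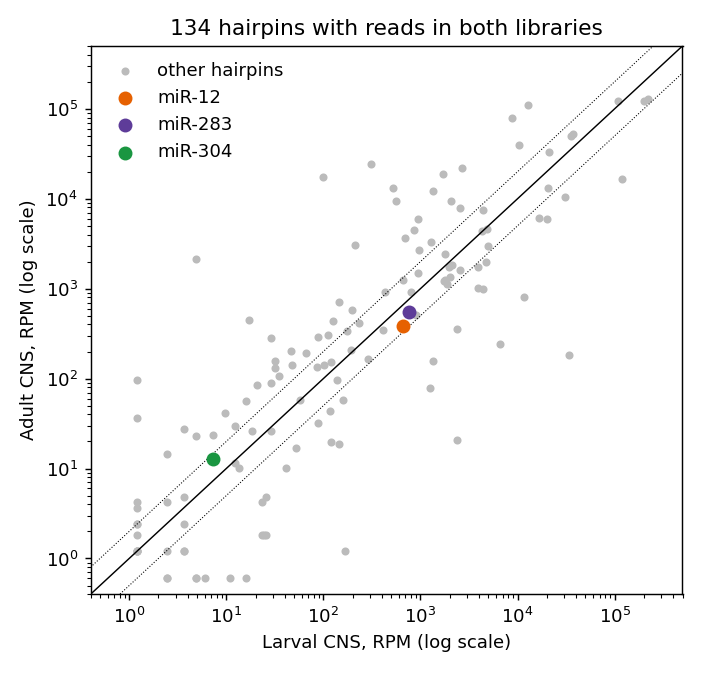
Adult against larval level in RPM, both on log axes, for the 134 hairpins with reads in both libraries. The solid line marks equal levels and the dotted lines a 2-fold difference, and all 3 members lie between the dotted lines, miR-12 and miR-283 below the solid line and miR-304 above it.

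The balance between members does not depend on the library total. miR-283 made 58.5% of the cluster's reads in the adult library (56.0 to 60.9) and 53.1% in the larval one (50.2 to 56.0), and the intervals lay just apart. miR-12 made 40.2% of adult (37.8 to 42.7) and 46.4% of larval cluster reads (43.5 to 49.3), and the intervals did not overlap. miR-304 made 1.33% of adult (0.824 to 2.02) and 0.513% of larval ones (0.188 to 1.11). The adult over larval ratio of miR-12 relative to that of miR-283 was 0.786, with an interval of 0.673 to 0.919. For miR-304 relative to miR-283 it was 2.35 (0.910 to 7.15), and relative to miR-12 it was 2.99 (1.15 to 9.11), both resting on the 6 larval reads. In mature reads alone the ratio of miR-12 relative to miR-283 was 0.688 (0.585 to 0.810). Among exact reads it was 0.878 (0.506 to 1.52), resting on 31 exact reads of miR-283 in each library. That interval holds 1 and also 0.786 and 0.688, so it does not set the exact reads apart from the other classes.

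The cluster was one of 16 groups of at least 2 compared hairpins that lay within 10 kb of a neighbour on the same strand. The most abundant member exceeded the least abundant by 44.0-fold in its adult and 103.5-fold in its larval counts, which ranked 4 of 16 in each library, beside medians of 9.56 in the adult and 7.68 in the larval counts over the 16 groups. Its log2 ratios spanned 1.50, which ranked 10 of 16 beside a median of 1.62, and this span rests on the 21 adult and 6 larval reads of miR-304, which reached 10 RPM in the adult library alone. Between miR-12 and miR-283 the span was 0.35, which would rank 13 of 16, a check added after seeing the data. miR-277, miR-34 and miR-317 spanned 5.81 on the same scale, and miR-279 with miR-996 spanned 0.21. Groups differ in size and some hold copies that share reads, so the ranks are descriptions.

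The 5' arm supplied nearly all mature reads of the abundant members. miR-283 had 913 reads on the 5' arm and 0 on the 3' arm in the adult library, and 615 and 0 in the larval one. The exact interval of its 3' share ended at 0.403% in the adult and 0.598% in the larval counts. miR-12 had 520 reads on the 5' arm and 1 on the 3' arm in the adult library, and 509 and 1 in the larval one, so its 5' share was 99.8% in both. miR-304 had 15 reads on the 5' arm and 4 on the 3' arm in the adult library, and 5 and 1 in the larval one. Its 3' share was 21.1% in adult (6.05 to 45.6) and 16.7% in larval reads (0.421 to 64.1), intervals too wide to compare the libraries. The adult interval of miR-304 lay above that of miR-12, which ended at 1.06%.

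A share was called different on a shift of 10 percentage points or more with intervals that did not overlap, and the 5' share was compared where both libraries had 20 or more mature reads. Of 86 such hairpins 7 (8.14%) had a higher 5' share in the adult library and 10 (11.6%) a lower one. miR-12 and miR-283 were among the 86 and neither was called. miR-304 had too few reads to enter.

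**Figure D3:**
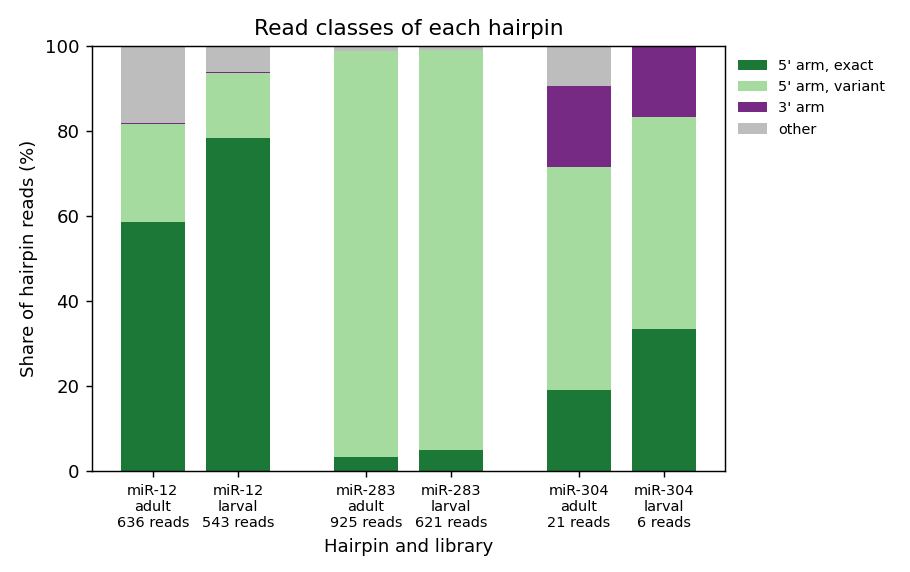
Share of hairpin reads in each class, in percent, for each hairpin in the adult library left of the larval one. Exact 5' reads lead for miR-12, at 373 of 636 adult and 425 of 543 larval reads, and variant 5' reads for miR-283, at 882 of 925 adult and 584 of 621 larval reads.

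The members parted in how closely their 5' reads met the annotated form. For miR-12, 373 of 520 adult 5' reads were exact, or 71.7% (67.6 to 75.6), and 425 of 509 larval ones, or 83.5% (80.0 to 86.6). This share was 11.8 points lower in the adult library and was called different by the rule just given. For miR-283 only 31 of 913 adult and 31 of 615 larval 5' reads were exact, or 3.40% of adult (2.32 to 4.79) and 5.04% of larval ones (3.45 to 7.08). Most 5' reads of miR-283 thus did not equal its annotated form, and the tables do not show where they differ from it. What counts as exact or variant for this hairpin depends on the annotation used. Variants of the 5' arm made 882 reads, or 95.4%, of all its adult hairpin reads (93.8 to 96.6) and 584 reads, or 94.0%, of the larval ones (91.9 to 95.8). miR-304 had 4 exact among 15 adult and 2 among 5 larval 5' reads, with intervals from 7.79% to 55.1% in the adult and from 5.27% to 85.3% in the larval library.

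Of 57 hairpins with at least 20 reads on the 5' arm in each library, 2 (3.51%) were called for a higher exact share in the adult library and 13 (22.8%) for a lower one, miR-12 among the 13. The shift of miR-12 was the one ranked 11 from the lowest. The median exact share over the 57 was 45.7% in the adult and 54.2% in the larval counts. The share of miR-283 ranked 8 from the lowest in the adult and 9 in the larval counts, and 8 of the 57 hairpins stayed under 10% in both. The tables count variant reads without saying at which end they differ from the annotated form or by how many bases, and this was not analysed here. The leading member depended on the read class: in exact mature reads miR-12 exceeded miR-283 by 12.1-fold in the adult library (8.36 to 18.0) and by 13.7-fold in the larval one (9.54 to 20.5). These folds carry the same dependence on the annotated form of miR-283.

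Other reads, those of the hairpin that the tables count under neither mature arm, were more frequent in miR-12 than in miR-283. miR-12 had 115 other reads in the adult library and 33 in the larval one, or 69.1 adult and 40.1 larval RPM. They made 18.1% (15.2 to 21.3) of its adult and 6.08% (4.22 to 8.43) of its larval reads, a shift of 12.0 points that was called. miR-283 had 12 adult and 6 larval other reads, 1.30% of its adult (0.672 to 2.26) and 0.966% of its larval reads (0.355 to 2.09). miR-304 had 2 adult and 0 larval ones, and the exact interval of the larval 0 of 6 ended at 45.9%. The adult interval of miR-12 lay above that of miR-283, and the same held in the larval library.

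Of 89 hairpins with at least 20 reads in each library, 6 (6.74%) were called for a higher share of other reads in the adult library, miR-12 among the 6, and 2 (2.25%) for a lower one. The shift of miR-12 ranked 5 of 89. The median share of other reads over the 89 was 1.37% in the adult and 0.783% in the larval counts, and over all hairpin reads it was 4.06% in the adult and 2.37% in the larval one. In the deposited tables the columns for other reads and exact other reads held the same number in all 348 checked entries, so other reads cannot be divided further. Which part of the hairpin they cover was not analysed here.

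**Figure D4:**
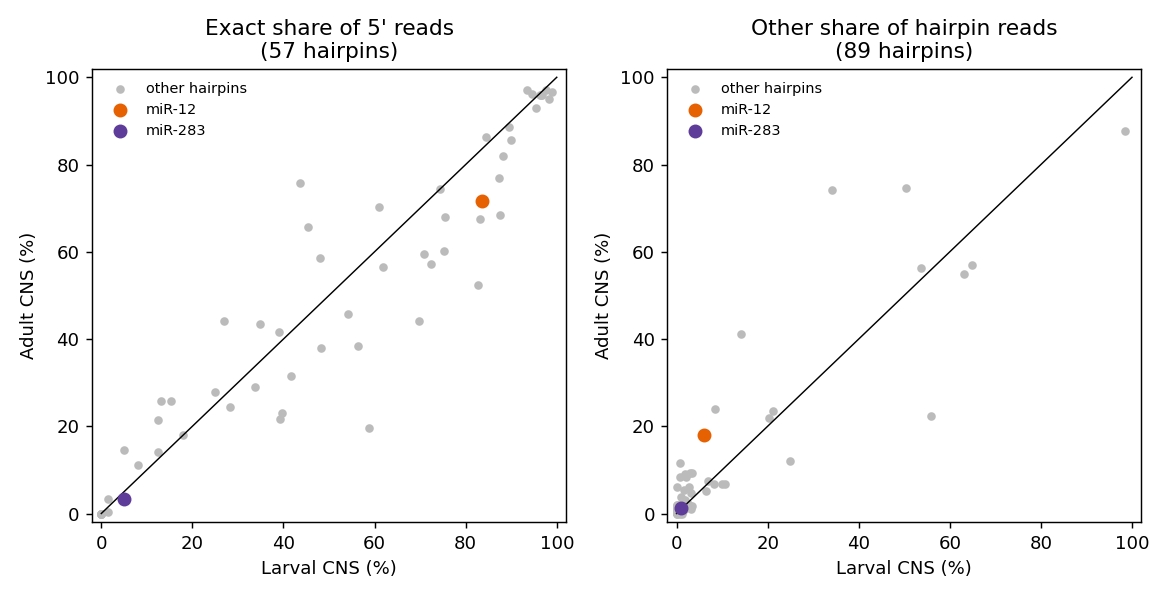
Adult against larval share in percent for each hairpin with at least 20 reads of the kind in each library, on the left the exact share of 5' reads (57 hairpins) and on the right the share of other reads (89 hairpins), with the line of equal shares. miR-12 lies below the line on the left, at 71.7% adult and 83.5% larval, and above it on the right, at 18.1% adult and 6.08% larval.

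The read classes of miR-12 had different ratios between the libraries. Its exact mature reads had an adult over larval ratio of 0.434 (0.376 to 0.499), from 374 adult and 426 larval reads, and this met the 2-fold rule. All its mature reads, 521 adult and 510 larval, had a ratio of 0.505 (0.446 to 0.571), just short of that rule. With mature reads and the full total 45 of 112 hairpins (40.2%) were called for the adult library and 29 (25.9%) for the larval one. The mature ratio of miR-12 was 0.484 with TMM factors, 0.456 with DESeq2 size factors and 0.352 with the reduced total. These pairings of class and scaling were chosen after seeing the data. How many of all hairpins meet the rule in these pairings was not computed, so the values are not counted as calls. In all hairpin reads the reduced total raised the larval calls from 28 to 41 of 114. Its variant 5' reads, 147 adult and 84 larval, had a ratio of 0.864 (0.657 to 1.14), within counting error of 1. With the reduced total that ratio was 0.603 (0.458 to 0.798), an interval below 1. Its other reads had a ratio of 1.72 (1.16 to 2.62), higher in the adult library and under 2-fold, while the reduced total gave 1.20 (0.809 to 1.83), which holds 1. The intervals of its exact, variant and other reads did not overlap, though those of variant and other reads came close, ending at 1.14 and beginning at 1.16.

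For miR-283 the classes lay closer together. All mature reads had a ratio of 0.733 (0.661 to 0.814) and variant 5' reads 0.746 (0.671 to 0.830). The 31 exact reads of each library gave 0.494 (0.290 to 0.840), which met the 2-fold rule, with an interval that also holds the ratio of the variant reads. Scaled by the total of exact reads, an alternative chosen after seeing the data, the ratio was 0.507 and missed the rule. The other reads, 12 adult and 6 larval, gave 0.988 (0.343 to 3.21). For miR-304, 19 adult and 6 larval mature reads gave 1.56 (0.601 to 4.79) and the exact ones, 7 adult and 3 larval, gave 1.15 (0.263 to 6.91), with both intervals holding 1. With exact reads 99 hairpins passed the floor, of which 42 (42.4%) were called for the adult library and 34 (34.3%) for the larval one. miR-12 and miR-283 are among the 34, and miR-304, with 7 adult and 3 larval exact reads, was under the floor.

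**Figure D5:**
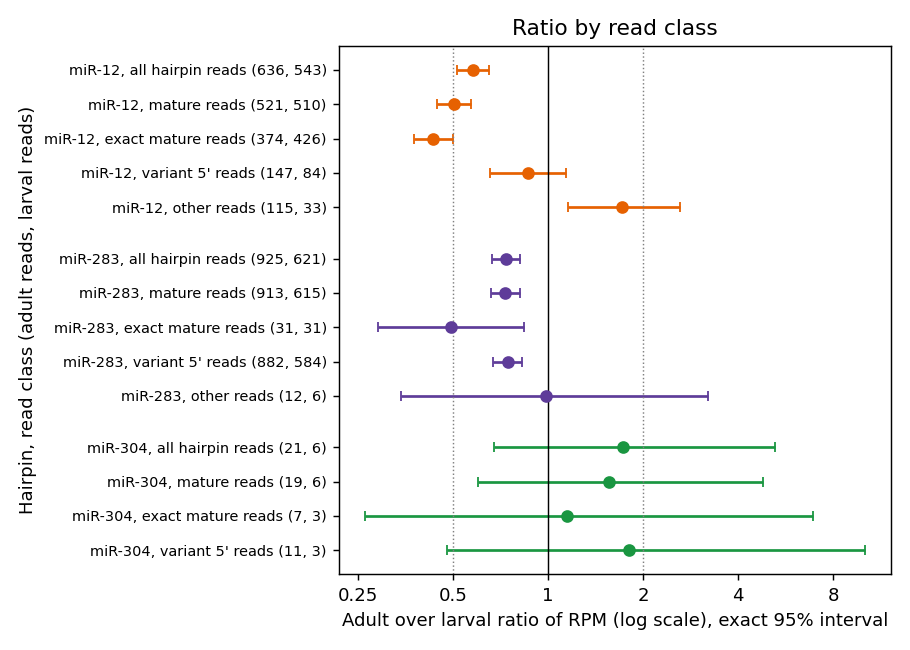
Adult over larval ratio of RPM for each hairpin and read class on a log axis, with exact 95% intervals and read counts in the labels. A solid line marks 1 and dotted lines mark 0.5 and 2. The other reads of miR-304, 2 adult and 0 larval, are not shown. The classes of miR-12 run between 0.434 for exact reads and 1.72 for other reads, and those of miR-283 between 0.494 and 0.988.

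No member shared mature reads with another hairpin. Mature reads that fitted a single hairpin equalled the mature reads in all 6 entries, adult and larval, for the 3 members, so the members' mature counts do not depend on how shared reads were assigned. For other reads this was not analysed here.

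Among the 64 other hairpins with at least 100 reads in each library, the log2 ratios nearest to that of miR-12 were those of miR-996 (-0.79), miR-184 (-0.80) and miR-31a (-0.76). Nearest to miR-283 were miR-13b-1 (-0.51), miR-988 (-0.52) and miR-13b-2 (-0.53). The miR-13b hairpins are copies of a single miRNA. Nearest to miR-304 were miR-33 (0.67), miR-1000 (0.75) and miR-8 (0.63), though its own ratio is loosely fixed. With 2 libraries a near ratio is a weak likeness, and these hairpins differ widely in level: miR-184 had 127872 RPM in the adult and 221891 RPM in the larval library.

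Of 22 miRNAs listed for a part in daily rhythms, a group studied in the fly brain, 16 passed the floor, of which 4 were called for the adult library, 3 for the larval one and 9 for neither, beside the 40.4% called for the adult and 24.6% for the larval library over the compared hairpins. Their median log2 ratio was 0.20, beside 0.47 over the compared hairpins. Among the called ones with reads in both libraries, the largest ratios in each direction were those of miR-210, a miRNA of photoreceptors, at 176-fold higher in the adult library, and of miR-92a, at a log2 ratio of -6.80. miR-263b, also called for the adult library, had 20 adult and 0 larval reads.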

How the data were processed

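The authors deposited 1 table of read counts per library, whose values, per the file headers, are trimmed reads mapped to annotated miRNA hairpins and divided by arm. Per the submitters' processing notes, the tools include CASAVA 1.8 and the build is dm3. The aligner, allowed mismatches and miRNA release remain not given in the sources used here. In the comparison file, the authors' deposited values are signed fold changes of RPM, a score per hairpin, per the file headers.

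RPM, exact conditional intervals of ratios and exact binomial intervals of shares were computed with SciPy 1.17.1 and tested on simulated data. Log2 ratios had 0.5 reads added. No p-value was computed, since each stage has 1 library. Hairpin positions came from the Ensembl annotation of assembly BDGP6, where 170 of 174 names matched directly and all 174 with RefSeq synonyms, and were not combined with dm3 positions. Alternatives used TMM (edgeR 4.0.16), size factors (DESeq2 1.42.0), a total that leaves out the 10 most abundant hairpins of each library, no floor, and mature, exact or unique reads. Named hairpins were the members, their 3 nearest by log2 ratio, and the listed daily rhythm and marker miRNAs. Members and lists were chosen with earlier results of these data known. Lists of candidate hairpins were not used here, nor were sequences, and seeds were therefore not compared.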

Additional observations from a re-analysis of the deposited data

How the results depend on the processing

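Over all hairpin reads under each scaling, and in mature, exact and unique reads, miR-12 and miR-283 stayed lower in the adult library. In the same settings miR-304 had the higher adult value. The other reads of miR-12 were higher in the adult library with the full total (1.72). With the reduced total described below their ratio was 1.20 (0.809 to 1.83), an interval that holds 1. Each alternative scaling lowered every log2 ratio by a fixed amount, so ratios already below 1 could not rise above 1. For the members unique reads equal mature reads and are no separate check. In exact reads with the reduced total described next, miR-304 had a ratio of 0.803, below 1, from 7 adult and 3 larval reads. Calls were less stable. With a reduced total that leaves out the 10 most abundant hairpins of each library (14 in all), every log2 ratio dropped by 0.52 and the median of the compared hairpins was -0.05. miR-12 then had a ratio of 0.403 and was called higher in the larval library, while miR-283 reached 0.513 and miR-304 1.21. Over all compared hairpins 40 were then called for the adult library and 41 for the larval one, and the adult share of calls was 49.4%, against 62.2% with the full total. DESeq2 size factors shifted every log2 ratio by -0.15 and TMM by -0.06, with no call for a member in all hairpin reads. With exact mature reads miR-12 (0.434) and miR-283 (0.494) were called. With exact reads scaled by the total of exact reads, chosen after seeing the data, miR-12 had 0.445 and kept the call and miR-283 had 0.507 and lost it. The adult minus larval share of the cluster's reads was -9.24 points for miR-12 and 8.46 for miR-283 in mature reads, and -1.83 and 0.785 in exact reads. Of 39 alternative values of the members, 31 kept their direction and their side of the threshold or stayed within the counting interval. Another 4 gained a call that the main value lacked, and 4 values of the share in the cluster's reads moved outside the counting interval. The 39 include values of unique reads, which for the members could not differ from those of mature reads. The 14 alternative counts of called hairpins lay within 1.5 times the main counts, though the reduced total turned the adult majority of calls. No paired analysis was possible because each stage has 1 library. Depth limits miR-304 most, with 21 adult and 6 larval reads.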
